A study of Mus musculus with 12 samples.

Results

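The ligands and receptors that steer growing axons were examined in the ventral hippocampus of mice given corticosterone (CORT), the main glucocorticoid of rodents. Members were all genes whose symbol belongs to the semaphorin, plexin, neuropilin, ephrin, Eph, Slit, Robo, netrin or UNC5 families, found by a pattern on the symbol alone. The pattern took 67 of 17564 genes, of which 34 encode ligands and 32 receptors. The remaining one, Unc50, encodes an intracellular membrane protein outside the UNC5 receptor family and was kept because its symbol matched. All 67 are protein coding.

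Male C57BL/6 mice were either wild type (WT) or heterozygous for a knock-in of the human Val66Met substitution in brain-derived neurotrophic factor (BDNF het-Met). From 2 months of age they drank CORT at 25 mg/l in 1% ethanol, or 1% ethanol alone as vehicle (VEH), for 6 weeks. Per the labels, the 4 groups (each genotype with VEH or with CORT) held 3 libraries each, and each library pooled the RNA of 2 animals. The deposited tables give fitted values rather than values per library. Each value below is therefore the authors' log2 fold change between CORT and VEH within a genotype, with positive values meaning higher under CORT, and ± marks the standard error (SE) of the limma fit. That direction rests on how the deposited comparisons are named. Of 8 genes known to be induced by glucocorticoids, a list written after the data were seen, 3 were called higher in BDNF het-Met mice (Fkbp5, Plin4 and Zbtb16) and 1 lower (Per1), and for WT 2 higher (Fkbp5 and Plin4) and 1 lower (Tsc22d3). The 2 comparisons share no libraries but come from 1 joint fit, and VEH mice of the same genotype are the control in each.

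Guidance cues act in matched pairs. Semaphorins signal through plexins, with neuropilins as co-receptors for most secreted forms, ephrins are membrane-bound ligands of Eph receptor tyrosine kinases, Slits repel axons through Robo receptors, and netrins attract axons through Dcc and repel them through UNC5 receptors. In the adult hippocampus many of these proteins remain at synapses, where they take part in spine remodelling and in keeping the mossy fibre and entorhinal projections in their layers, and several also act in blood vessels and glia.

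A gene is called here when its uncorrected limma p was below 0.05, and is a differentially expressed gene (DEG), by the rule of the study, when its fold change was also above 1.3 in either direction. In BDNF het-Met mice 12 of 67 members were called (17.9%, against 13.2% of all genes), 8 of them higher under CORT (11.9%, against 6.55%) and 4 lower (5.97%, against 6.64%). In WT mice 3 were called (4.48%, against 3.83%), 2 higher (2.99%, against 2.25%) and 1 lower (1.49%, against 1.57%). Only Epha10 was called in both genotypes. DEGs were 4 members in BDNF het-Met mice (5.97%, against 3.24%), namely Sema3e and Epha6 with higher and Plxnd1 and Ephb1 with lower levels under CORT. Epha2 was the sole DEG among the members in WT mice (1.49%, against 1.25%). None of these calls passed a Benjamini-Hochberg adjusted p of 0.05 over all genes with limma, nor did any other gene, the smallest adjusted p of a member being 0.999 for WT and 0.254 for BDNF het-Met mice. The median 95% interval of a member's log2 fold change reached 0.27 to either side for WT and 0.24 for BDNF het-Met mice. For members with intervals at least that wide, smaller changes could not be called.

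The promoters of the 4 DEGs of BDNF het-Met mice are shown because these genes had the largest fold changes among the called members of that genotype. Each sequence runs 5′ to 3′ on the strand of its gene, in a window of 300 bases that spans the RefSeq start (GRCm38.p6), and capitals mark the hexamer AGAACA or its reverse complement TGTTCT, the core of the sequence that the glucocorticoid receptor binds.
Sema3e, chr5:14025026-14025325, plus strand: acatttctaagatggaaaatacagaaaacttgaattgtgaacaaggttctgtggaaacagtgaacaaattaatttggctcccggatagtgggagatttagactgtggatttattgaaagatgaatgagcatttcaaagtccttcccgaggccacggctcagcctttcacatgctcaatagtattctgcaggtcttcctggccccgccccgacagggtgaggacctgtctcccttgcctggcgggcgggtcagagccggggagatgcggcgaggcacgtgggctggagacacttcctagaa
Plxnd1, chr6:115994956-115995255, minus strand: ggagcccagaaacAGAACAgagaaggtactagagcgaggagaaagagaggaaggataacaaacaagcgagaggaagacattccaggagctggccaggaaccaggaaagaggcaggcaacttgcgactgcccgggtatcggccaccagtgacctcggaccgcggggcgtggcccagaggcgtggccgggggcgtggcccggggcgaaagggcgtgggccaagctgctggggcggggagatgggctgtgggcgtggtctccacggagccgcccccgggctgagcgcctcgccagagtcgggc
Epha6, chr16:60605482-60605781, minus strand: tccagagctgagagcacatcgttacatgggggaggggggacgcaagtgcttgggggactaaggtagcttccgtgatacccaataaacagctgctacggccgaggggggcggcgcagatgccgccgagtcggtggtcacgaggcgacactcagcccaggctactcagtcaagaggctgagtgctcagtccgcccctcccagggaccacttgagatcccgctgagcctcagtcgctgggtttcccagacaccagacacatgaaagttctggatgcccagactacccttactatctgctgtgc
Ephb1, chr9:102354644-102354943, minus strand: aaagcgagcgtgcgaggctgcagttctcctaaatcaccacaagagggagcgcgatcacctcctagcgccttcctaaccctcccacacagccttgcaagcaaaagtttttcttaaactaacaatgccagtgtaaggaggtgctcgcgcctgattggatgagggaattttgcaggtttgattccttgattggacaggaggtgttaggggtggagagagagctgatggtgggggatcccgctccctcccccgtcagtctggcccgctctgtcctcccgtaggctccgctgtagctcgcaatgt
The hexamer occurred once, in the window of Plxnd1. RefSeq windows were found for 59 members, and 8 of their 75 windows held the hexamer on either strand (10.7%), against 19.0% of all 32851 windows. The palindrome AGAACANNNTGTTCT, which contains the hexamer on both strands, was in no window of a member and in 3 windows in all. Windows of the members were rich in G and C, with a median of 64.3% against 52.7% over all windows, and held a median of 20 CpG dinucleotides against 7.

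Of the ligands, the 20 semaphorins came first in number. Sema3e, a secreted semaphorin that binds Plxnd1 without a neuropilin (chromosome 5, 14025276 to 14256689, GRCm38), was higher under CORT in BDNF het-Met mice by 0.39 ± 0.12 (p 0.00682 by limma, adjusted p 0.267), a fold of 1.31. In WT mice its value was 0.05 ± 0.13. The 6 other secreted class 3 semaphorins all had negative values in both genotypes, and none was called. Sema3a, the classical growth cone collapsing factor, had the lowest value of all members in BDNF het-Met mice, -0.83 ± 0.48, and Sema3b the lowest in WT mice, -0.50 ± 0.66. Both estimates were imprecise, since the SEs of Sema3a and Sema3b were the 2 largest among the members in each genotype.

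Sema6a, a transmembrane semaphorin that binds Plxna2 and Plxna4, had the smallest p of all members in BDNF het-Met mice. Its value was -0.25 ± 0.06 there (p 0.00223 by limma, adjusted p 0.254), and 0.00 ± 0.07 in WT mice. The fold change in BDNF het-Met mice, 0.844, did not reach the DEG rule. Of the 6 class 4 semaphorins 5 were above 0 for WT, and only 1 for BDNF het-Met mice, all between -0.14 and 0.09, and none was called. In all, 10 of the 20 semaphorins were above 0 for WT, and 4 for BDNF het-Met mice. Over all 17564 genes, 8591 were above 0 for WT and 8469 for BDNF het-Met mice. Of the semaphorins, Sema6a alone was called for the difference between the genotypes, described below.

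Among the receptors of semaphorins, Plxna4 and Plxnd1 were called in opposite directions in BDNF het-Met mice. Plxna4, a plexin that signals with neuropilins for Sema3a and without them for class 6 semaphorins (chromosome 6, 32144268 to 32588192), was higher by 0.32 ± 0.09 (p 0.00555 by limma). The value of Plxna4 in WT mice was 0.22 ± 0.10. Plxnd1, the receptor of Sema3e (chromosome 6, 115954811 to 115995005), was lower by -0.62 ± 0.18 (p 0.00559 by limma), a fold of 0.649, and in WT mice had -0.17 ± 0.21. It was the member with the largest fold change among those called, and the only one past a fold of 1.5. Nrp1, the co-receptor of Sema3a that also binds vascular endothelial growth factor (chromosome 8, 128358604 to 128503363), was higher by 0.32 ± 0.11 in BDNF het-Met mice (p 0.0169 by limma) and had 0.13 ± 0.13 in WT mice. Sema3e and Plxnd1 thus had values of opposite sign in BDNF het-Met mice, and so had Sema6a and Plxna4.

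**Figure D1:**
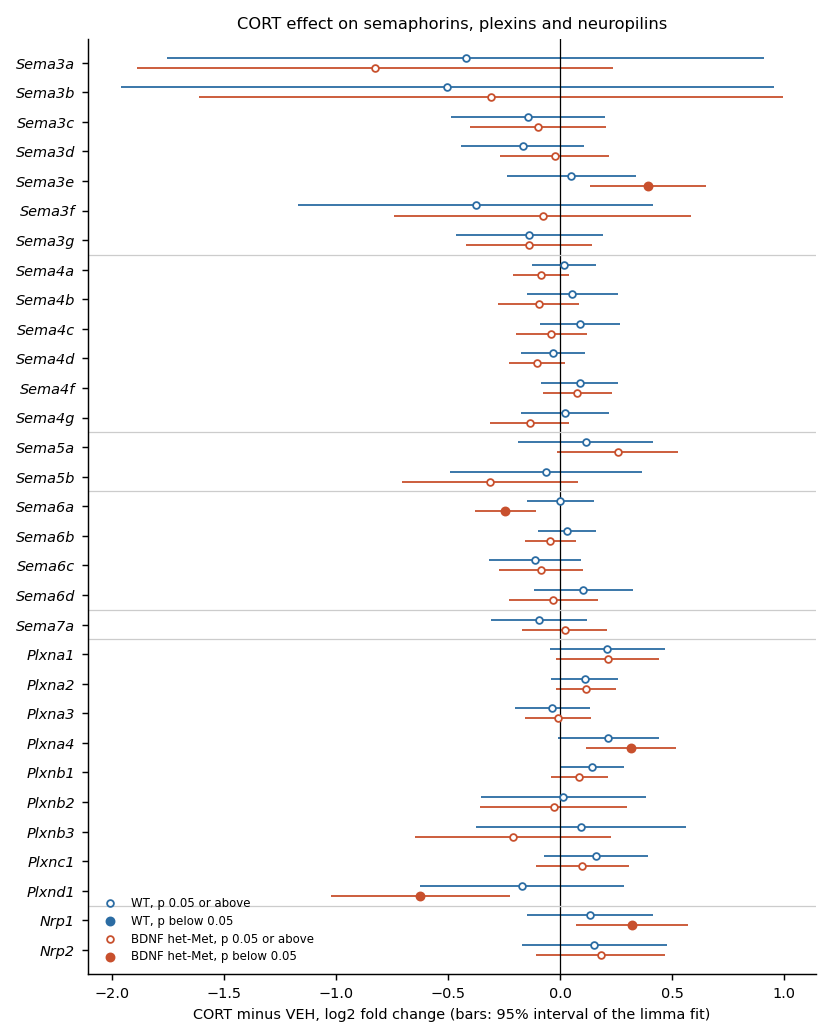
CORT minus VEH log2 fold change (x axis) of each semaphorin, plexin and neuropilin, with 95% intervals of the limma fit, in WT (blue) and BDNF het-Met mice (red). Filled points have an uncorrected p below 0.05, which no member shown reached in WT mice, and which Sema3e (0.39), Plxna4 (0.32), Nrp1 (0.32), Sema6a (-0.25) and Plxnd1 (-0.62) reached in BDNF het-Met mice.

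The 7 ephrins described here included no called gene in either genotype. In WT mice 6 of them were above 0, with a median of 0.11, and in BDNF het-Met mice 1 was, with a median of -0.09. The exception was Efna3, a GPI-anchored ephrin, with 0.11 ± 0.09 for WT and 0.14 ± 0.08 for BDNF het-Met mice. No ephrin was called for the difference between the genotypes.

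Of the 13 Eph receptors 3 were called in WT (23.1%, against 3.83% of all genes) and 4 in BDNF het-Met mice (30.8%, against 13.2%). Epha10, an Eph receptor whose kinase domain is catalytically inactive (chromosome 4, 124880899 to 124917800), was higher under CORT by 0.28 ± 0.11 (p 0.0236 by limma) for WT and by 0.30 ± 0.09 (p 0.00937 by limma) for BDNF het-Met mice. The 2 genotypes differed by 0.01 ± 0.14, with a 95% interval from -0.30 to 0.33. Epha6 (chromosome 16, 59653483 to 60605531) was higher in BDNF het-Met mice by 0.39 ± 0.15 (p 0.0228 by limma), a fold of 1.31, and had 0.22 ± 0.16 in WT mice. Epha4, a receptor for ephrins of both classes found at dendritic spines (chromosome 1, 77367185 to 77515088), was higher by 0.26 ± 0.11 in BDNF het-Met mice (p 0.0374 by limma) and had 0.03 ± 0.12 in WT mice. Of the 8 EphA receptors 7 were above 0 for BDNF het-Met mice, and 4 for WT, and none was called for the difference between the genotypes. Epha2 was lower by -0.49 ± 0.22 in WT mice (p 0.0449 by limma) and had 0.11 ± 0.17 in BDNF het-Met mice, but its mean level was only 0.06 on the log2 CPM scale, CPM being reads scaled to library size.

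Of the 5 EphB receptors 1 was called higher in WT mice and 1 lower in BDNF het-Met mice. Ephb3 (chromosome 16, 21204755 to 21223305) had the smallest p of all members in WT mice, where it was higher by 0.27 ± 0.07 (p 0.00302 by limma, adjusted p 0.999), and had 0.14 ± 0.07 in BDNF het-Met mice. Ephb1, a receptor of B-class ephrins (chromosome 9, 101922128 to 102354693), was lower by -0.48 ± 0.16 in BDNF het-Met mice (p 0.0127 by limma), a fold of 0.715, and had -0.30 ± 0.18 in WT mice. Ephb4, the venous partner of Efnb2, was below 0 in both genotypes (WT -0.27 ± 0.13, BDNF het-Met -0.18 ± 0.11) without being called in either.

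Slit1, a secreted repellent (chromosome 19, 41600257 to 41743665), was higher under CORT in BDNF het-Met mice by 0.32 ± 0.13 (p 0.0356 by limma) and had 0.28 ± 0.15 in WT mice. Slit3 had 0.27 ± 0.12 for BDNF het-Met and 0.26 ± 0.14 for WT mice, but its p of 0.0502 in BDNF het-Met mice by limma missed the threshold. Slit2 stood near 0 in both (BDNF het-Met 0.05 ± 0.14, WT 0.02 ± 0.15). None of the 4 Robo receptors was called, and Robo1 and Robo2, the main Slit receptors of the forebrain, lay between -0.06 and 0.09.

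Of the netrins, Ntn1, the founding member of the family (chromosome 11, 68209364 to 68400823), was lower in BDNF het-Met mice by -0.21 ± 0.07 (p 0.0132 by limma) and had -0.02 ± 0.08 in WT mice. Its repulsive receptor Unc5c (chromosome 3, 141465216 to 141834924) was higher in BDNF het-Met mice by 0.28 ± 0.08 (p 0.00494 by limma) and had 0.10 ± 0.09 in WT mice. The other UNC5 receptors were not called in either genotype, and Unc5a, the most highly expressed of them, had 0.15 ± 0.10 for BDNF het-Met and 0.20 ± 0.12 for WT mice. Unc50 had 0.02 ± 0.05 for BDNF het-Met and -0.01 ± 0.06 for WT mice.

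**Figure D2:**
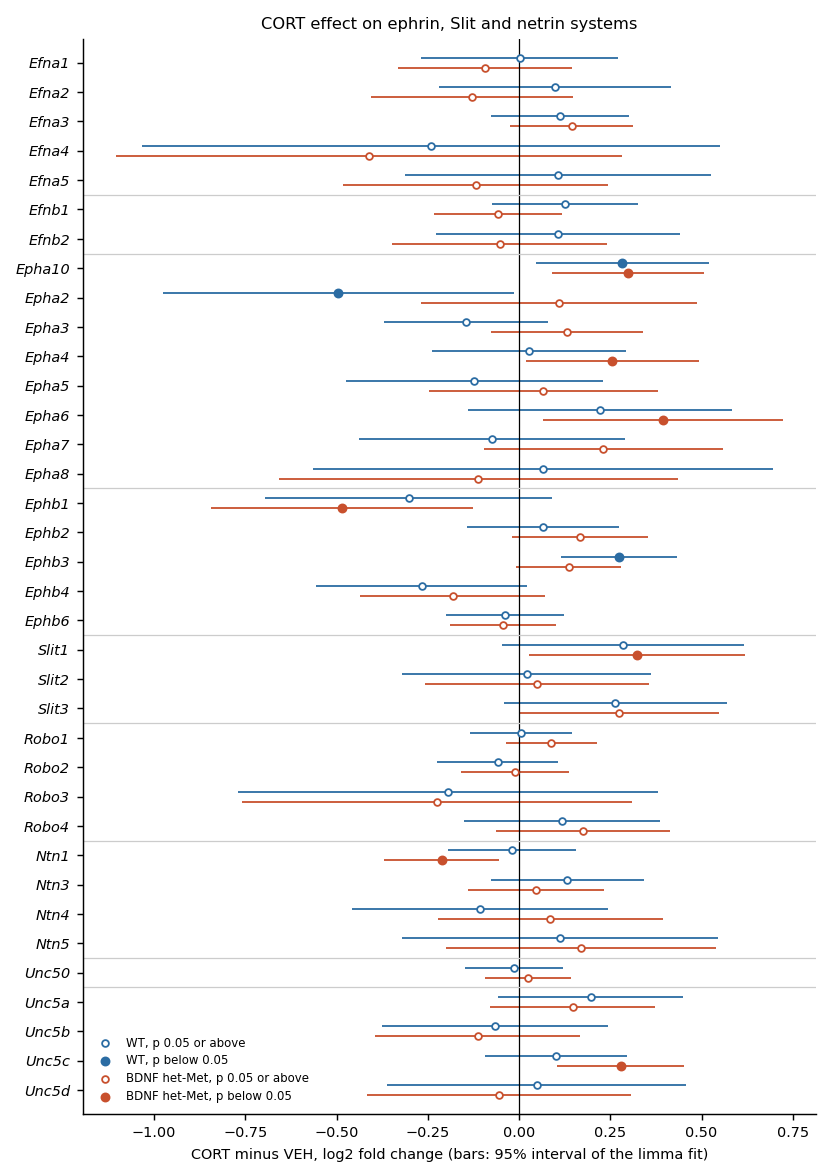
The same plot for ephrins, Eph receptors, Slits, Robo receptors, netrins, Unc50 and UNC5 receptors, with CORT minus VEH log2 fold change on the x axis and 95% intervals as bars. In WT mice (blue) Epha10, Ephb3 and Epha2 carry filled points (p below 0.05), and in BDNF het-Met mice (red) Epha10, Epha4, Epha6, Slit1 and Unc5c to the right of 0 and Ephb1 and Ntn1 to the left.

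Whether the genotypes responded differently was tested gene by gene, as the BDNF het-Met minus the WT value. Sema6a alone was called among the members (1.49%, against 2.41% of all genes), with a difference of -0.25 ± 0.09 (p 0.0216 by limma's SEs). Its adjusted p was 1.00, and no gene passed the adjustment for the difference. Next in order of p were Epha2 with 0.60 ± 0.28 (p 0.0525), Epha3 with 0.28 ± 0.14 (p 0.0731), Sema3e with 0.34 ± 0.18 (p 0.0787) and Ntn1 with -0.19 ± 0.11 (p 0.100). The larger number of calls in BDNF het-Met mice was therefore not matched by called differences between the genotypes. Of the 67 members, 44 had the same sign in both (65.7%, against 62.5% of all genes).

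The mean of both CORT effects, in which each genotype counts equally, called 18 members (26.9%, against 13.3% of all genes). Of these, 14 were higher under CORT (20.9%, against 7.17%) and 4 lower (5.97%, against 6.18%). No member passed the adjusted p for the mean effect, which 13 genes (0.074%) did. In 17 of the 18 both genotypes had the same sign, as in 2319 of 2344 called genes, Sema6a being the exception. The smallest p belonged to Ephb3 (0.20 ± 0.05, p 0.00148, adjusted p 0.197), Epha10 (0.29 ± 0.07, p 0.00194) and Plxna4 (0.27 ± 0.07, p 0.00268), all by limma's SEs. Unc5c (0.19 ± 0.06, p 0.00850) and Slit1 (0.30 ± 0.10, p 0.0120) were also called higher. Lower mean values were called for Ephb1 (-0.39 ± 0.12, p 0.00775), Plxnd1 (-0.40 ± 0.14, p 0.0147), Ephb4 (-0.22 ± 0.09) and Sema6a (-0.12 ± 0.05). For 7 of the 18 the call was made in neither genotype alone, among them Slit3 (0.27 ± 0.09, p 0.0150) and the plexins Plxna1 (0.21 ± 0.08), Plxna2 (0.11 ± 0.05) and Plxnb1 (0.11 ± 0.04).

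For the mean effect 10 of the 32 receptors were called higher and 3 lower (40.6%). Of the 34 ligands 4 were called higher and 1 lower (14.7%), and the difference between both roles was not tested. Of all genes 13.3% were called, 7.17% higher and 6.18% lower. Median levels were 6.25 log2 CPM for receptors and 4.16 for ligands. Among all genes the share called was larger at high levels, as given below, and the part of level in the shares of both roles was not tested. Plexins made up 5 of the receptor calls, 4 of them higher. With the ordinary instead of the moderated SE, the receptors Plxna1, Plxna2, Plxnd1, Nrp1, Epha6 and Unc5a lost this call. After the centring by level described below, Plxna2, Plxnb1 and Unc5a lost it. Of the plexins, Plxna4 alone kept its call under both. The joint F test of the authors' fit, which covers 3 contrasts, called 11 members (16.4%, against 7.43%). One of the 11, Epha3, was called by neither CORT comparison (WT -0.15 ± 0.10, BDNF het-Met 0.13 ± 0.09, joint p 0.0156 by limma).

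**Figure D3:**
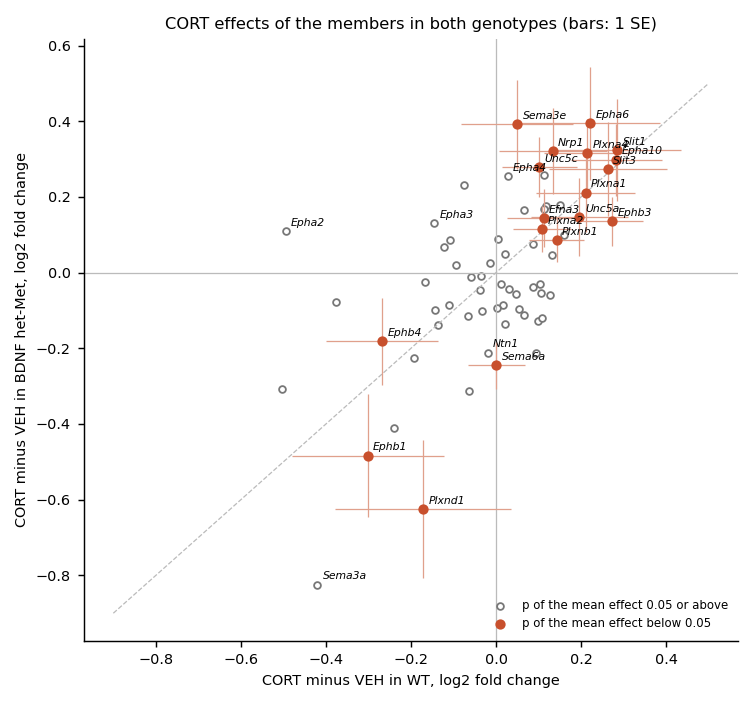
CORT effect of each member in WT (x axis) against BDNF het-Met mice (y axis), as log2 fold changes, with the line of equal effects dashed and 1 SE as bars on the 18 members called for the mean effect (filled). The 14 called higher lie in the upper right, Ephb1, Ephb4 and Plxnd1 in the lower left, and Sema6a at 0.00 for WT and -0.25 for BDNF het-Met mice.

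The share of genes called also depended on expression level. In the highest of 5 equal bins of genes by mean level, from 6.00 log2 CPM upwards, 22.3% of all genes were called for the mean effect and 18.4% were called higher. The same bin held 26 members, of which 11 were called, all of them higher (42.3%). In the next bin down 5 of 15 members were called (33.3%, against 13.9% of all genes). From the lowest bin up, the remaining bins had 0 of 2, 1 of 12 and 1 of 12 members called. These shares were 0%, 8.33% and 8.33%, against 8.17%, 11.0% and 11.4% of all genes. Median log2 fold changes in BDNF het-Met mice ran from -0.06 in the lowest bin to 0.03 in the highest. When each bin was centred on its own median, 14 members kept a call for the mean effect, 10 higher and 4 lower (20.9%, against 12.2% of all genes). With the ordinary instead of the moderated SE, 11 were called, 7 higher and 4 lower (16.4%, against 11.9%), and for the BDNF het-Met comparison 8, of which 4 were higher and 4 lower (11.9%, against 11.9%).

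**Figure D4:**
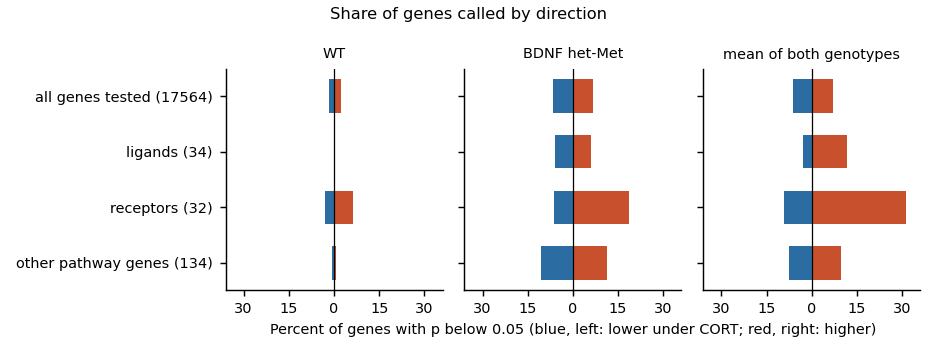
Percent of genes with an uncorrected p below 0.05 (x axis), lower under CORT to the left in blue and higher to the right in red, for all 17564 genes, the 34 ligands, the 32 receptors and 134 other genes of the pathway. The longest bar is that of the receptors called higher for the mean effect. By the moderated SE, both bars of the receptors together hold 40.6% there, against 13.3% of all genes and 14.7% of ligands.

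Levels were compared between members per length, as log2 CPM per kilobase of exons averaged over libraries. The median was 2.01 for the members and 1.96 for all genes, and receptors (2.69) stood above ligands (1.73). Epha4 (5.67), Unc5a (5.56), Slit1 (5.53) and Sema6b (5.13) had the highest values, and no order is read among them because no error of a level is given. Plexins ranged from 1.61 for Plxnb3 to 4.47 for Plxna1. The lowest levels were those of Epha2 (-2.17) and Efna4 (-1.88), the 2 members below 1 log2 CPM before division by length. The 8 members called higher in BDNF het-Met mice had a median of 3.47 log2 CPM per kilobase, and the 4 called lower 1.84.

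**Figure D5:**
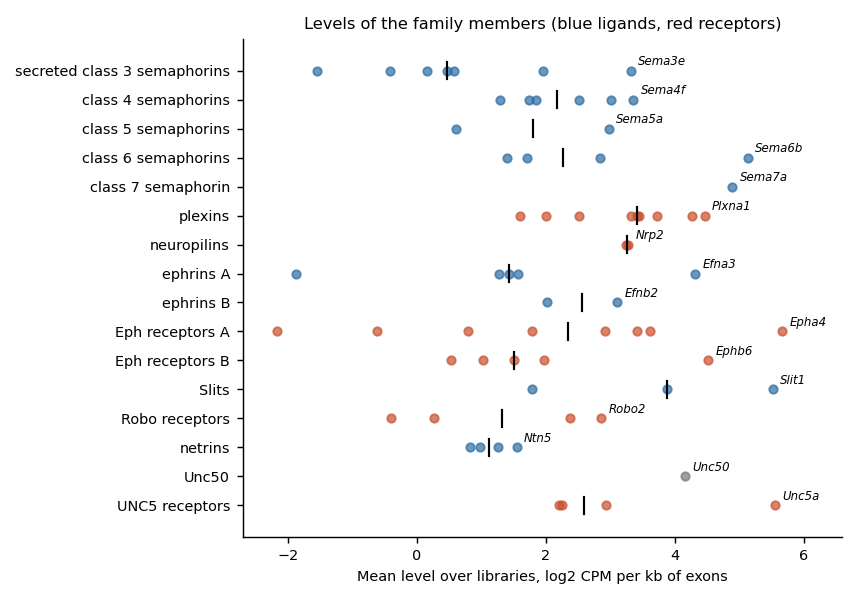
Mean level of each member over libraries (x axis, log2 CPM per kilobase of exons) by family, ligands in blue, receptors in red and Unc50 in grey, with family medians as black bars and the highest member named. EphA receptors span the widest range, from Epha2 at -2.17 to Epha4 at 5.67.

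Other genes of guidance signalling were taken from 8 lists, among them co-receptors, kinases and actin effectors, of which 134 genes were in the tables. In BDNF het-Met mice 15 were called higher and 14 lower (21.6%, against 13.2% of all genes). In WT mice 1 was called in each direction (1.49%, against 3.83%). For the mean effect 23 were called (17.2%, against 13.3% of all genes). The smallest p in BDNF het-Met mice was that of Chn2, a Rac GTPase-activating protein that acts downstream of plexins and Eph receptors, at -0.61 ± 0.14 (p 0.00112 by limma), and its sign rests on the naming of the comparison, since the text of the study words the direction of this gene differently. Dock1 (-0.23 ± 0.07, p 0.00953) and Dock4 (0.37 ± 0.10, p 0.00325), both exchange factors for Rac, were called in opposite directions by limma in the same mice. Rgma, a repulsive ligand of neogenin, was lower by -0.29 ± 0.08 (p 0.00377 by limma), and Marcks, a membrane-bound actin regulator, by -0.37 ± 0.09 (p 0.00206 by limma). The kinases Fyn (-0.15 ± 0.05, p 0.00886), Fer (0.20 ± 0.06, p 0.00953) and Rock2 (0.18 ± 0.05, p 0.00532) were called by limma in both directions. Enah, an actin regulator of growth cones, was called higher in both genotypes (WT 0.17 ± 0.07 with p 0.0322, BDNF het-Met 0.21 ± 0.06 with p 0.00621, by limma).

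Markers of the cells in the sample were read beside the members. Of all genes, 13.2% were called in BDNF het-Met mice, 3.83% in WT mice and 13.3% for the mean effect. Prox1, the defining factor of dentate granule cells, had a mean level of 6.68 log2 CPM, and 7 of 8 granule cell markers were above 0 in BDNF het-Met mice (median 0.24, 1 called). Microglial markers were below 0 in 8 of 8 (median -0.43, 5 called lower), and oligodendrocyte markers in 7 of 8 (median -0.32, 3 called lower). Endothelial and pericyte markers, which bear on Plxnd1, Ephb4, Robo4 and Nrp1, had a median of -0.04 and no call in either genotype. For the mean effect 2 of 8 were called lower, as Ephb4 and Plxnd1 were. Nrp1 was called higher for the mean effect (0.23 ± 0.09), and Robo4 was above 0 without a call (0.15 ± 0.08). Thalamic markers had a median of -0.12 with 2 of 8 called lower, and astrocyte markers -0.13 with 2 higher and 3 lower of 7. Of 5 oligodendrocyte precursor markers 2 were called lower (median -0.23). In BDNF het-Met mice 1 of 7 pyramidal cell markers and 1 of 6 general neuron markers were called higher. Of 8 interneuron markers 1 was called in each direction there. For WT, 2 astrocyte markers were called higher and 1 lower, 1 precursor marker in each direction, and 1 granule cell and 1 general neuron marker higher. In WT mice all 10 choroid plexus markers were below 0 (median -1.24, median SE 1.56, none called). For BDNF het-Met mice 8 of the 10 were above 0 (median 0.19, median SE 1.52, none called). All 6 ependyma markers were above 0 in WT and below 0 in BDNF het-Met mice, again with none called. Of 7 markers of meninges and fibroblasts, 6 were below 0 in WT mice (median -0.24, median SE 0.53, none called). In BDNF het-Met mice 4 of the 7 were below 0 (median -0.12, median SE 0.44, none called). Levels per group were not analysed here, the part of these cells in the members' values was not tested, and fewer cells of a type cannot be told apart from less RNA per cell.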

How the data were processed

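RNA-seq libraries were stranded and read as 75-bp single-end reads. The authors removed reads of low quality, mapped with STAR to GRCm38 (mm10), used featureCounts with Ensembl genes and then limma-voom. Tool versions, the expression filter, normalization factors and the strand setting were not given in the sources used here. Deposited log2 values are mean expression (log2 CPM) and, per genotype, the VEH minus CORT difference with its SE. The deposited p-values are uncorrected, Benjamini-Hochberg adjusted and joint F p-values, and the deposited scores are the moderated t and F. These are the authors' own comparisons, used here because the tables hold nothing per library, so depth per library is unknown. Mice came from several litters. How litters were spread over the libraries was not given, so p-values measure the spread between these pools.

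The sign was turned so that positive means higher under CORT. The printed SE is the log2 fold change over the moderated t. Uncorrected p-values were checked to be the tail of t at 10.91 total degrees of freedom. The listed residual degrees of freedom were 7, where 12 libraries in 4 groups leave 8 and 11 libraries leave 7. The ordinary SE was a median of 1.12 times larger in WT than in BDNF het-Met mice, and 2 libraries in place of 3 in one arm give 1.12 at equal weights. Whether a library was left out is not stated.

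The difference between genotypes and the mean of both CORT effects were computed from both log2 fold changes and SEs at these degrees of freedom, with Benjamini-Hochberg adjustment over all 17564 genes (Python 3.11.15, scipy 1.17.1), after a test on simulated data. Positions and exon lengths came from GENCODE M21 on GRCm38 by Ensembl identifier (17557 matched), promoters from RefSeq. Full statistics were given to members with p below 0.05 in a genotype, to DEGs, to the 5 members of smallest p for the difference and the 8 for the mean effect, and to the 9 pathway genes with p below 0.01. Members and lists were chosen with earlier results of these data known. One gene of these families is not reported here.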

Additional observations from a re-analysis of the deposited data

Results flagged for a closer look

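The CORT effect on Sema6a differed between the genotypes by -0.25 ± 0.09 (log2, BDNF het-Met minus WT, p 0.0216 by the SEs of the limma fit), from 0.00 ± 0.07 in WT to -0.25 ± 0.06 in BDNF het-Met mice. It was marked because the difference itself was tested and had an uncorrected p below 0.05. The adjusted p over all genes was 1.00, and 2.41% of all genes had such a p. With no values per library, the number of libraries that show the direction is unknown.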

How the results depend on the processing

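Counts of called members depended on the threshold. At an uncorrected p below 0.01, 1 member for WT, 6 for BDNF het-Met mice, 0 for the difference and 5 for the mean effect were called, and with the limma p adjusted over all genes 0 in each case (3, 12, 1 and 18 at the uncorrected threshold of 0.05). Shares of all genes at a p below 0.01, for the difference under an alternative and for the DEG counts below are not given here. Those counts are therefore not read as more or fewer than among all genes. The ordinary SE called 2 members for the difference and 11 for the mean effect. With it Epha10 in WT mice and Nrp1, Epha4, Epha6 and Slit1 in BDNF het-Met mice lost their call. For the mean effect 8 members lost it, namely Sema3e, Efna3 and the receptors named above for the ordinary SE. Centring each of 5 bins of expression called 2 for the difference, and ended the calls of Epha2 in WT and of Epha4 and Slit1 in BDNF het-Met mice. DEGs among the members numbered 0 in WT at a fold above 1.5, at a mean level of at least 1 log2 CPM and after centring, and in BDNF het-Met mice 1 at a fold above 1.5 and 2 after centring. The 2 left after centring were Plxnd1 and Ephb1, both lower under CORT. Sema3e and Epha6, the DEGs with higher levels, both had 0.36 after centring and missed the fold rule. The median level of the members was 2.60 log2 CPM per kilobase by the longest transcript. No called log2 fold change turned its sign under an alternative. Among all members, centring turned the sign of Plxnb2 and Robo1 (WT) and of Sema7a (BDNF het-Met), all within 0.02 of 0 and not called. After centring, an alternative for this count chosen after seeing the data, 39 members for WT and 31 for BDNF het-Met mice were above 0, from 41 and 32. No paired analysis was possible because the tables hold no value per library, and leaving out each replicate in turn was not run for the same reason. Depth per library is unknown, and the SEs set what could be detected.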

Other observations

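The members are long genes. Their median genomic span was 46.3 kb, against 20.0 kb for all genes, and it was 190 kb for the 8 members called higher in BDNF het-Met mice and 162 kb for the 4 called lower. Exons of Plxna1 shared 10.7% of their bases with the antisense gene Gm26811, those of Efna3 14.1% with Gm15998 and those of Ntn5 23.4% with Sec1 on the other strand. Since the strand setting of the counting is not given in the sources used here, reads of these pairs may not have been told apart. In BDNF het-Met mice Efnb2 had -0.05, and of its receptors Ephb1 had -0.48, Ephb4 -0.18 and Epha4 0.26, of which Ephb1 and Epha4 were called.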
